A study of Homo sapiens with 12 samples.

Results

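The ligands of the TNF superfamily are trimeric signalling proteins, most of them made as membrane proteins that can be shed, which act on receptors of the matching receptor family. TNF and the lymphotoxins drive NF-κB signalling and inflammation, TNFSF10 (TRAIL) can trigger apoptosis through death receptors, and TNFSF9 (4-1BB ligand), TNFSF13B (BAFF), TNFSF14 (LIGHT) and TNFSF15 (TL1A) are known mostly as co-stimulators or survival factors of lymphocytes. In the gut, TNF is the target of antibodies used against inflammatory bowel disease, and TNFSF15 lies at a susceptibility locus for that disease. The 8 genes described here, TNF, LTA, LTB, TNFSF9, TNFSF10, TNFSF13B, TNFSF14 and TNFSF15, were taken by symbol from the 58735 genes of an expression table, and 6 of them passed the filter of a mean FPKM of 0.1 or more, as did 18079 genes in all.

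The table holds 12 RNA-seq libraries of NCM460, an established human line described as normal colonic epithelium, in 4 groups of 3 libraries. The medium group (wild type, medium alone), the TNF-α group (wild type, TNF-α) and the 5-OH-TMT group (wild type, TNF-α together with 5-OH-TMT, which the labels call Bufotenidine) were compared with a knockdown group, in which HTRA2, a mitochondrial serine protease, was silenced and TNF-α was given. The knockdown was made by siRNA. The labels of the TNF-α and 5-OH-TMT libraries name no control siRNA, so transfection and loss of HTRA2 cannot be told apart in the comparisons with them. The study names the comparator of its knockdown si-CTRL, a name that no label holds. The TNF-α dose, the treatment times and the siRNA used for the knockdown libraries are not given in the sources used here. The added TNF-α was a protein, whereas every value below is an mRNA level. Values are FPKM, that is, fragments scaled for gene length and library depth, so levels can be compared between genes. Where they are low the number of reads behind them, recovered from the FPKM, is given as well. Many of the lowest read numbers were even, so both ends of a fragment may have been counted. This was not tested, and low read numbers may stand for fewer fragments. Nothing states that the 3 libraries of a group came from separate cultures, so p-values measure the spread between libraries.

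Each library held 31008429 to 37624399 reads on genes. HTRA2 was at 14.5 ± 0.774 FPKM (SD, n = 3) with TNF-α and at 7.28 ± 0.137 FPKM (SD, n = 3) in the knockdown, so that it fell by 0.98 on the log2 scale (standard error 0.09, adjusted p = 2.77e-05). Library 2 of the knockdown group stood apart, with 2.95% of its reads on mitochondrial genes against 3.69% to 4.68% in the other libraries. All 7 epithelial markers reached a mean of 1 FPKM in every group, but none of 6 colonic markers did (CDX1, CDX2, VIL1, LGALS4, CDH17 and MUC2, summed level at most 0.227 FPKM), so the cells are called by the name of the line. None of 9 leukocyte markers reached 1 FPKM, with CD3E at 0 in all libraries and PTPRC at 0.00404 FPKM or less on average.

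In the reference sequence, the 8 genes lie on 5 chromosomes. LTA, TNF and LTB stand side by side within 10469 bases of chromosome 6 (GRCh38), LTA at 31572054 to 31574324 and TNF at 31575567 to 31578336 on the plus strand and LTB at 31580525 to 31582522 on the minus strand. TNFSF9 (6530999 to 6535928, plus) and TNFSF14 (6661253 to 6670588, minus) are on chromosome 19, TNFSF10 is on chromosome 3 (172505508 to 172523507, minus), TNFSF13B on chromosome 13 (108251240 to 108308484, plus) and TNFSF15 on chromosome 9 (114784635 to 114806126, minus). TNFSF10 overlaps a pseudogene, AC007919.1, on the other strand, and TNFSF13B overlaps the intronic AL157762.1 on the same strand and RNA5SP39 on the other. The strand setting of the read counting is not given in the sources used here.

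The promoters are shown because every change below is a change of mRNA, and they let the ligands be set apart by sequences that NF-κB and interferon regulatory factors are known to bind. The 250 bases before each RefSeq start of the 8 genes (GRCh38.p14, all 8 matched by symbol) were searched on both strands for the κB consensus, bound by NF-κB, and for GAAANNGAAA, a repeat found in sites of interferon regulatory factors. They were searched on the sense strand for TATAAA, the core of a TATA box. Of 35091 promoters, 9.95% held the κB consensus, 3.02% the GAAA repeat and 6.81% TATAAA. The TNF promoter, chr6:31575315-31575564 on the plus strand, held only TATAAA, in capitals, from base −29 to −24 before the start:
TNF: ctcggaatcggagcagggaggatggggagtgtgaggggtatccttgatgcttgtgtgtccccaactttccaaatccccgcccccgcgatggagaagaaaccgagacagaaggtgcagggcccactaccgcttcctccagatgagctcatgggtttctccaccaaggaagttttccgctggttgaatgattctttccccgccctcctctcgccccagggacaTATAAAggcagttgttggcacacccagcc

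A κB match was found for LTB, LTA and TNFSF14, and that of LTB is read from the other strand. The 30 bases around each match, with the match in capitals, are those at chr6:31582492-31582521 (minus) for LTB, chr6:31572176-31572205 (plus, the second of its 2 listed starts) for LTA and chr19:6670332-6670361 (minus) for TNFSF14. LTA and TNFSF14 each held 2 overlapping matches:
LTB: aggggtgtgcGGAAAGTCCCagccaggtgt
LTA: ctaagccctGGGGGCTTCCCcgggccccag
TNFSF14: gggaaagctGGGGGCTCCCCactgcacttg

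A GAAA repeat was found for TNFSF10, TNFSF13B and TNFSF9, and none of these held a κB match. The 30 bases around it are those at chr3:172523598-172523627 (minus) for TNFSF10, where it is read from the other strand, chr13:108269637-108269666 (plus, the second of 2 starts) for TNFSF13B and chr19:6530822-6530851 (plus) for TNFSF9:
TNFSF10: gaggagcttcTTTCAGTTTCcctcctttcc
TNFSF13B: tacaaaaactGAAAGTGAAAtgaggaagac
TNFSF9: tggaaggccgGAAACGGAAAggagagcgaa

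The window of TNFSF15 held none of the 3 motifs. TATAAA was also found for LTA (second start), TNFSF9 and TNFSF10, with its last base at −26 or −25. The listed starts of TNFSF15 and TNFSF13B lie 13596 and 18389 to 18478 bases inside the spans that the table gives these genes, and those of the other genes except TNF lie 27 to 430 bases inside. A match here is a description of the letters, not a site shown to be bound, and no match says only that these letters are not in this window.

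Without TNF-α, the ligand mRNA of NCM460 cells was mainly TNFSF9. The 8 genes together summed to 5.81 ± 0.304 FPKM (SD, n = 3) in medium, and TNFSF9 made up 80.1 ± 1.22% (SD, n = 3) of that. TNFSF10 at 0.604 ± 0.0616 FPKM, TNFSF15 at 0.429 ± 0.0705 FPKM and TNFSF14 at 0.0938 ± 0.0398 FPKM followed in this order (SD, n = 3 each), and none of these 4 overlapped its neighbour in the order. LTB, TNFSF13B, TNF and LTA had no more than 2 reads in any medium library and could not be ordered among themselves.

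**Figure D1:**
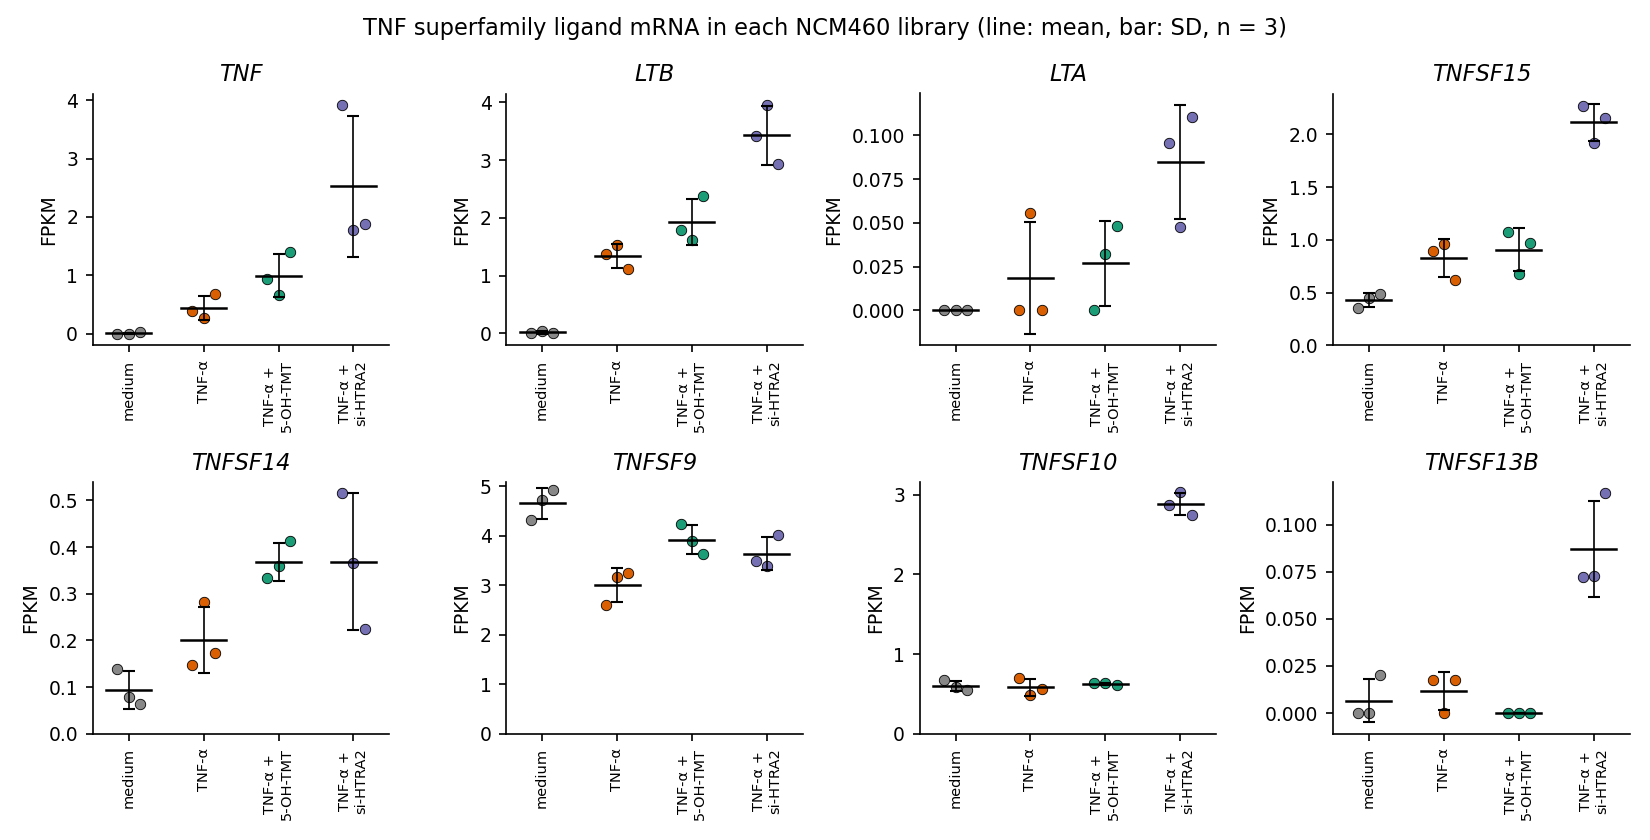
FPKM of each of the 8 ligand genes (vertical axis, a separate scale for each gene) in each library, by group; points are libraries, the line is the mean and the bar the SD of 3 libraries. TNF and LTB rise from close to 0 in medium, TNFSF9 is highest in medium, and TNFSF10 and TNFSF13B stand high in the knockdown libraries.

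The first comparison was TNF-α against medium. LTB and TNF mRNA appeared, TNFSF15 rose 1.93-fold in mean FPKM, TNFSF9 fell, and TNFSF10 and TNFSF14 did not pass the test. At an adjusted p under 0.05, 3 of the 6 tested ligands were higher and 1 was lower, where 4.1% of all tested genes were called in either direction. Their median log2 fold change was 0.71, beside −0.002 over all genes tested. TNF and LTB had means of 0.00609 and 0.0135 FPKM in medium, so they passed the filter only through the groups given TNF-α. LTA and TNFSF13B, which stayed at or under the floor of 3 reads in both groups, are not counted. The share and the median of the ligands therefore rest in part on the filter. At the threshold for a differentially expressed gene (DEG, a change of 2-fold or more and an unadjusted p not above 0.05), 2 ligands were called higher, LTB and TNF, where 1.76% of all tested genes were. With a pseudocount of 1, 1 of the ligands was.

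LTB, the membrane anchor of lymphotoxin heterotrimers, had 0, 2 and 0 reads in the 3 medium libraries and 77, 73 and 64 reads with TNF-α. Every TNF-α library was far above every medium library. Measured against the floor of 3 reads a library, LTB was at least 22.6-fold higher (fitted log2 fold change 3.67, standard error 0.20, adjusted p = 4.74e-07), and its level of 1.34 ± 0.205 FPKM (SD, n = 3) made it the second most abundant ligand. The floor covers counting error only.

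TNF, the cytokine itself, had 0, 0 and 1 reads in medium and 24, 14 and 42 reads with TNF-α. All 3 treated libraries were above the medium libraries, but the highest held 3 times the reads of the lowest. TNF was at least 8.20-fold higher (fitted log2 fold change 2.29, standard error 0.35, adjusted p = 0.00231). With 1 rather than 0.1 added to the FPKM before the logarithm, which shrinks low genes most, the adjusted p was 0.246. LTA, which forms homotrimers or joins LTB, was not brought above the floor: it had no reads in medium and 0, 3 and 0 with TNF-α.

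TNFSF15, which acts on the death-domain receptor TNFRSF25, was at 0.351, 0.446 and 0.489 FPKM in medium and at 0.895, 0.960 and 0.622 FPKM with TNF-α. The groups did not overlap, and TNFSF15 rose by 0.80 on the log2 scale (standard error 0.20, adjusted p = 0.0432). This call was the least firm of the 4, since it was lost in 5 of the 10 other settings and in 9 of the 12 fits that left out a library, with adjusted p up to 0.162. The 3 fits that kept it were those without TNF-α library 3 or 5-OH-TMT library 1 or 2.

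TNFSF9, which binds TNFRSF9 (4-1BB) on activated T cells, was the ligand that fell. It was at 4.32, 4.73 and 4.93 FPKM in medium and at 2.60, 3.16 and 3.25 FPKM with TNF-α, with no overlap (log2 fold change −0.62, standard error 0.11, adjusted p = 0.00524). It remained the most abundant ligand, at 46.7 ± 4.07% (SD, n = 3) of the summed FPKM. A fit to only these 2 groups gave an adjusted p of 0.0527.

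TNFSF14, a ligand of the lymphotoxin-β receptor LTBR, had 23, 12 and 10 reads in medium and 26, 42 and 31 with TNF-α, and TNFSF10 was at 0.604 FPKM in medium and 0.584 FPKM with TNF-α. The libraries of TNFSF14 did not overlap but its difference missed the threshold (log2 fold change 0.63, 95% interval −0.02 to 1.28, adjusted p = 0.358). Those of TNFSF10 overlapped (log2 fold change −0.05, 95% interval −0.36 to 0.26). Counted by libraries, 4 of the 6 tested ligands were higher in every TNF-α library, as were 11.1% of all tested genes, and 1 was lower in every one, as were 8.74%. The exact permutation p of each of these 5 was 0.1, the smallest that 3 libraries against 3 allow. The summed ligand FPKM was 6.43 ± 0.309 (SD, n = 3), little above medium, because the loss of TNFSF9 mRNA offset much of the gain in LTB and TNF.

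**Figure D2:**
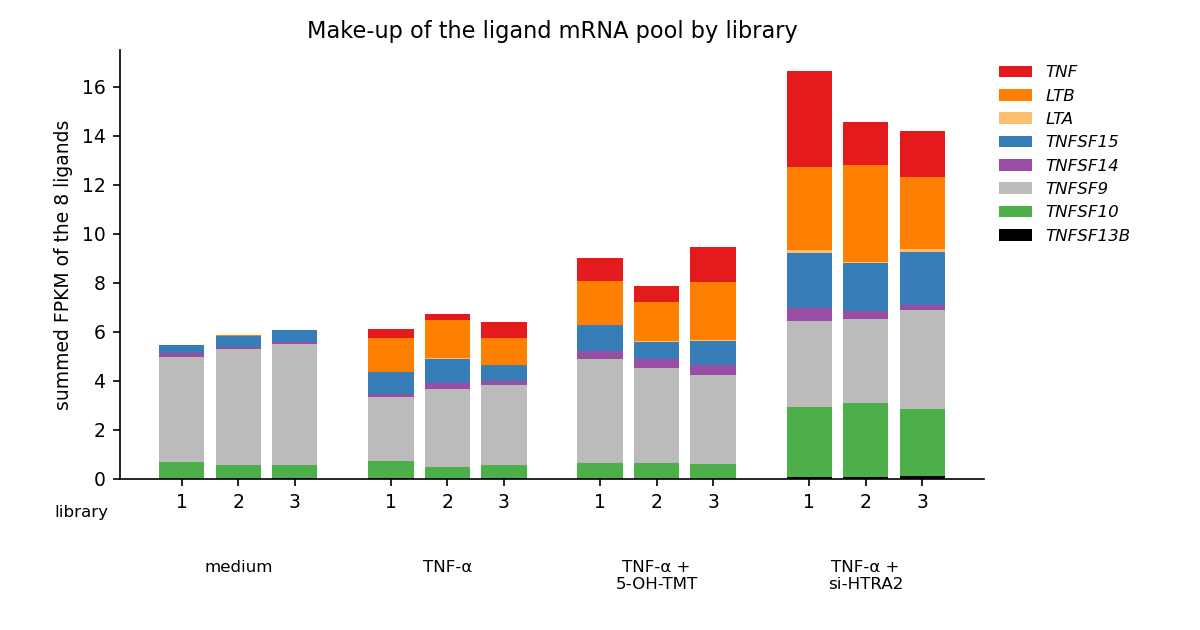
FPKM of the 8 ligands stacked for each library (vertical axis, FPKM; colours are genes; horizontal axis, library number within each group). TNFSF9 is most of the bar in medium, and the knockdown bars, 14.2 to 16.7 FPKM in height, are shared by TNFSF9, LTB, TNFSF10, TNF and TNFSF15.

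The second comparison asked what 5-OH-TMT, a quaternary indole amine, changed in cells given TNF-α. All 6 tested ligands had a fitted level above that of the TNF-α group, and none passed the adjusted threshold in limma. In this comparison 0.0387% of all tested genes were called, 7 in number, so this fit called almost nothing anywhere. That number was unstable, with 236 genes called by voom and 911 in a fit to only the groups compared. At an unadjusted p under 0.05 there were 4 ligands, TNF, LTB, TNFSF9 and TNFSF14, where 20.1% of all tested genes were, and voom on the recovered reads called none of the 6 either. The median log2 fold change of the 6 ligands was 0.43, beside 0 over all genes tested.

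TNF had 55, 39 and 84 reads with 5-OH-TMT against 24, 14 and 42 with TNF-α alone. The lowest 5-OH-TMT library lay below the highest TNF-α library, so the groups overlapped. The ratio of mean FPKM was 2.24, and the log2 fold change of 1.02 (95% interval 0.25 to 1.79) placed TNF at the DEG threshold with an adjusted p of 0.152. It was the only ligand there, where 0.686% of all tested genes were called higher. It no longer reached the threshold with a pseudocount of 1 (log2 fold change 0.46) or without TNF-α library 1 (0.98), TNF-α library 2 (0.77) or 5-OH-TMT library 3 (0.77).

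LTB, TNFSF9 and TNFSF14 were each higher in every 5-OH-TMT library than in every TNF-α library, as were 16.3% of all tested genes. LTB had 97, 88 and 131 reads against 77, 73 and 64 (log2 fold change 0.49, adjusted p = 0.203). TNFSF9 was at 4.23, 3.90 and 3.64 FPKM, between TNF-α alone and medium (log2 fold change 0.38, 95% interval 0.14 to 0.61, adjusted p = 0.116). TNFSF14 had 56, 61 and 71 reads (log2 fold change 0.66, adjusted p = 0.246).

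TNFSF10 and TNFSF15 were at nearly the level of TNF-α alone. TNFSF10 was at 0.638, 0.632 and 0.608 FPKM with 5-OH-TMT (log2 fold change 0.10, 95% interval −0.21 to 0.40) and TNFSF15 at 1.07, 0.678 and 0.969 FPKM (log2 fold change 0.12, 95% interval −0.31 to 0.55). LTA had 0, 2 and 3 reads and TNFSF13B none, so both were at or under the floor. The summed ligand FPKM was 8.78 ± 0.810 (SD, n = 3), and TNFSF9 made up 45.0 ± 5.78% of it.

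**Figure D3:**
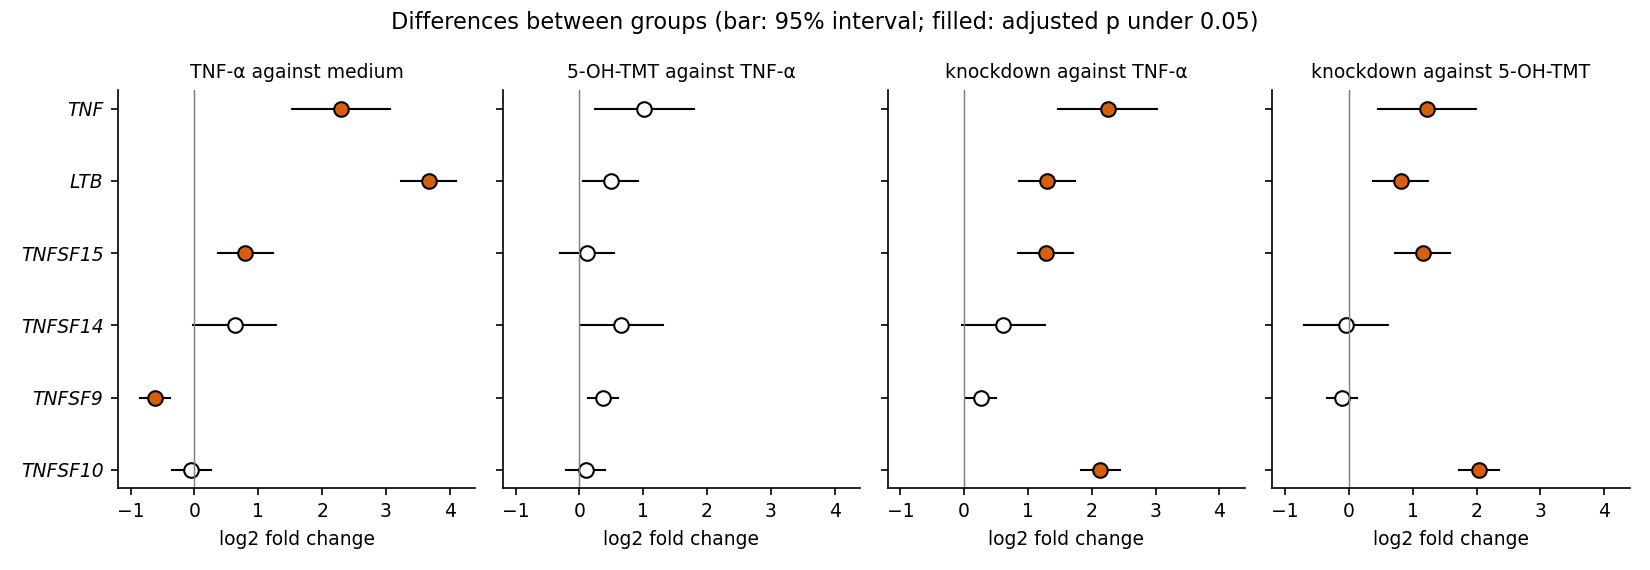
Log2 fold change of the 6 tested ligands (horizontal axis, the same scale in each panel) in the 4 comparisons; bars are 95% intervals from the fit and filled points have an adjusted p under 0.05. Filled points are 4 in TNF-α against medium, none in 5-OH-TMT against TNF-α and 4 in each knockdown comparison, where TNFSF9 and TNFSF14 are the open ones.

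The third comparison, knockdown against TNF-α, gave the broadest rise. TNF, TNFSF10, LTB and TNFSF15 rose, 4 of the 6 tested ligands, where 9.35% of all tested genes were called higher and 17.4% in either direction. All 4 were at the DEG threshold too, which 3.08% of all tested genes reached on the higher side. With a pseudocount of 1, 2 of the ligands reached it. The median log2 fold change of the 6 was 1.29, beside −0.003 over all genes tested. TNFSF13B, under the filter, also rose in the fit without a filter.

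TNFSF10, a death ligand that TNF-α had left at its medium level, was at 2.87, 3.03 and 2.75 FPKM in the knockdown against 0.699, 0.490 and 0.564 FPKM with TNF-α. The groups lay far apart and the knockdown libraries were close to each other. The ratio of mean FPKM was 4.94 (log2 fold change 2.14, standard error 0.14, adjusted p = 6.17e-06), and the call held in all 10 other settings and all 12 fits with a library left out.

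TNF had 237, 107 and 115 reads in the knockdown, with library 1 well above the other two. Even the lowest was above every TNF-α library. TNF rose 5.69-fold in mean FPKM (log2 fold change 2.25, standard error 0.35, adjusted p = 0.00112), and without knockdown library 1 or any other single library it was still called. LTB was at 3.41, 3.96 and 2.93 FPKM, 2.57-fold its mean with TNF-α (log2 fold change 1.30, standard error 0.20, adjusted p = 9.36e-04). A pseudocount of 0.01 took the adjusted p of LTB to 0.0862.

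TNFSF15 was at 2.27, 1.92 and 2.15 FPKM in the knockdown, above every library of the other 3 groups. Its mean was 2.56-fold that with TNF-α (log2 fold change 1.28, standard error 0.20, adjusted p = 0.00100), a firmer call than the one against medium. TNFSF13B, which supports B cell survival, had 8, 8 and 13 reads, where the other 9 libraries had 0 to 2. It was at least 3.10-fold higher than with TNF-α (log2 fold change 0.74, adjusted p = 0.00713 in the fit without a filter), and lost the call with a pseudocount of 0.01 or in a fit to the 2 groups alone. LTA, the neighbour of TNF and LTB, had 6, 3 and 7 reads, at least 1.71-fold the TNF-α level, with an adjusted p of 0.102, or 0.0357 without TNF-α library 2, which held the 3 reads of that group.

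TNFSF9 and TNFSF14 did not pass. TNFSF9 was at 3.50, 3.40 and 4.02 FPKM, above every TNF-α library by a log2 fold change of 0.27 (95% interval 0.03 to 0.51, adjusted p = 0.109), and TNFSF14 had 89, 63 and 39 reads, a wide spread that reached into the TNF-α range (log2 fold change 0.61, adjusted p = 0.188). Counted by libraries, 5 of the 6 tested ligands were higher in every knockdown library, as were 17.5% of all tested genes. The summed ligand FPKM reached 15.1 ± 1.33 (SD, n = 3), and the share of TNFSF9 was 24.2 ± 3.76%. In order of mean level TNFSF9, LTB, TNFSF10, TNF and TNFSF15 came next to each other, and each overlapped its neighbour.

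Leaving out knockdown library 2, which stood apart, ended none of these 4 calls. Other marker lists moved with the knockdown. The summed level of 9 leukocyte markers was 0.421 to 0.885 FPKM in the knockdown against 0.176 to 0.334 FPKM with TNF-α, that of 6 fibroblast markers 2.60 to 3.24 FPKM against at most 1.32 FPKM and that of 5 endothelial markers 2.23 to 3.67 against 1.42 to 1.57 FPKM. The endothelial sum had been 0.517 to 0.610 FPKM in medium, so it moved with TNF-α too. The leukocyte sum had been 0.231 to 0.545 FPKM in medium, which overlapped the knockdown. With 5-OH-TMT the endothelial sum was 1.77 to 2.01 FPKM, above every TNF-α library. There the leukocyte sum was 0.320 to 0.454 FPKM and the fibroblast sum 1.16 to 1.46 FPKM, and both overlapped the TNF-α range. CD14 was the highest leukocyte marker in each group, at 0.397 FPKM on average in medium, 0.0946 with TNF-α and 0.443 in the knockdown. ITGAM moved otherwise, with no reads in medium, 37 over the TNF-α libraries and 62 over the knockdown libraries. COL1A1 was most of the fibroblast sum and CDH5 of the endothelial sum in these 3 groups, while PTPRC had 1 read over the 3 knockdown libraries and CD3E, DCN and KDR none. Their part in the rise of the ligands was not tested, and in bulk RNA a change in the number of cells of a type cannot be told apart from a change in RNA per cell.

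The knockdown and 5-OH-TMT groups were both given TNF-α and compared with the same TNF-α libraries, so they were also compared with each other. Transfection and loss of HTRA2 cannot be told apart here either, since the 5-OH-TMT labels name no siRNA. TNFSF10, TNFSF15, TNF and LTB were higher in the knockdown, 4 of the 6 tested ligands, where 7.85% of all tested genes were called higher and 15.3% in either direction. Every knockdown library was above every 5-OH-TMT library for these 4, as for 18.2% of all tested genes, and 3 of them, all but LTB, were at the DEG threshold, as were 2.18% of all tested genes on the higher side. That number fell from 3 to 1 with a pseudocount of 1 or without 5-OH-TMT library 2, and to 2 without knockdown library 1.

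TNFSF10 differed most, at a ratio of mean FPKM of 4.61 (log2 fold change 2.04, standard error 0.14, adjusted p = 1.57e-05). TNFSF15 followed at 2.33 (log2 fold change 1.16, adjusted p = 0.00293). Both were called in all 10 other settings and all 12 fits that left out a library.

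The other two calls were less firm. TNF was 2.54-fold higher in mean FPKM (log2 fold change 1.23, standard error 0.35, adjusted p = 0.0371), and this call was lost in 4 of 9 other settings and in 5 of 12 fits with a library left out, with adjusted p up to 0.142. The 5 libraries were medium 1, TNF-α 1, 5-OH-TMT 1 and 2 and knockdown 1. LTB was 1.78-fold higher (log2 fold change 0.81, adjusted p = 0.0188), and lost its call with a pseudocount of 0.01, at 0.295, and without 5-OH-TMT library 1 or 2 or knockdown library 1 or 2, at up to 0.0825. TNFSF13B, with no reads in the 5-OH-TMT libraries, was at least 3.16-fold higher (adjusted p = 0.00400 in the fit without a filter).

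TNFSF9 and TNFSF14 were not separated between 5-OH-TMT and knockdown. For TNFSF9 the log2 fold change was −0.11 (95% interval −0.34 to 0.13), and for TNFSF14 it was −0.04 (95% interval −0.70 to 0.61). LTA had 16 reads over the 3 knockdown libraries and 5 over the 3 with 5-OH-TMT (adjusted p = 0.189).

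The other genes of the pathway were counted from 4 lists. Of 10 further ligands of the superfamily, 3 were tested (CD70, EDA and TNFSF13). CD70, the ligand of CD27, rose with TNF-α from 0.333 ± 0.0658 to 1.13 ± 0.510 FPKM (SD, n = 3; log2 fold change 1.44, adjusted p = 0.0113), the only call of the list in any of the 4 comparisons. The 7 others had a mean below 0.1 FPKM over the libraries, and CD40LG had no reads at all.

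Of the 15 receptors of the 8 ligands, 9 were tested. TNFRSF1A, the main receptor of TNF, was at 58.2 ± 2.62 FPKM (SD, n = 3) with TNF-α and was not called in any comparison. With TNF-α against medium 4 receptors rose and none fell, where 4.1% of all tested genes were called in either direction. TNFRSF9, 1 of the 4, passed the filter only through the groups given TNF-α, so this count rests in part on the filter. By fitted log2 fold change the 4 receptors were led by TNFRSF11B (osteoprotegerin, a decoy for TRAIL, 1.45, adjusted p = 0.0161) and TNFRSF9 (1.24, adjusted p = 0.0226). TNFRSF10B (a TRAIL death receptor, 0.75, adjusted p = 4.87e-05) followed. The fitted value understates the rise of TNFRSF9, whose mean went from 0.00468 to 0.153 FPKM. For TNFRSF11B it went from 0.202 to 0.682 FPKM.

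TNFRSF9, the receptor of TNFSF9, had 2, 1 and 0 reads in medium and 43, 17 and 44 with TNF-α, so ligand and receptor mRNA moved in opposite directions. With 5-OH-TMT, TNFRSF9 had 70, 58 and 113 reads (log2 fold change 0.85 against TNF-α, adjusted p = 0.139). Each of these libraries was above every TNF-α library, as for 16.3% of all tested genes. In the knockdown TNFRSF9 had 194, 192 and 194 reads (log2 fold change 1.93 against TNF-α, adjusted p = 5.65e-04). TNFRSF11B (1.08, adjusted p = 0.0280) and TNFRSF10B (0.45, adjusted p = 0.00114) were the other receptors called in the knockdown, 3 higher and none lower, where 9.35% of all tested genes were called higher. These 3 were called against 5-OH-TMT as well, where 7.85% were. None was called for 5-OH-TMT against TNF-α, where 2 of the 9 had an unadjusted p under 0.05, close to the 20.1% of all tested genes. Over the 9 receptors the median of the log2 fold changes was 0.25, 0.11 and 0.14 in the 3 comparisons.

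Of 8 genes for shedding and cleavage of the ligands, all tested, ADAM17, the protease that releases TNF from the membrane, was the only call with TNF-α against medium, where 4.1% of all tested genes were called (log2 fold change 0.37, adjusted p = 0.0251). In the knockdown 5 of the 8 rose, where 9.35% of all tested genes were called higher, led by TIMP3, an inhibitor of ADAM17 (0.50, adjusted p = 2.29e-04), ADAM10 (0.47, adjusted p = 0.00886) and ADAM17 (0.46, adjusted p = 0.00266). A protease and its inhibitor were thus higher together. Against 5-OH-TMT 4 were higher in the knockdown, where 7.85% of all tested genes were, led by ADAM10 (0.55, adjusted p = 0.00516), SPPL2A (0.53, adjusted p = 0.0144) and ADAM17 (0.48, adjusted p = 0.00349). For 5-OH-TMT against TNF-α none was called and 4 of the 8 had an unadjusted p under 0.05, as had 20.1% of all tested genes. Over these 8 genes the median of the log2 fold changes was 0.03 with TNF-α, 0.14 for 5-OH-TMT and 0.40 for the knockdown.

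**Figure D4:**
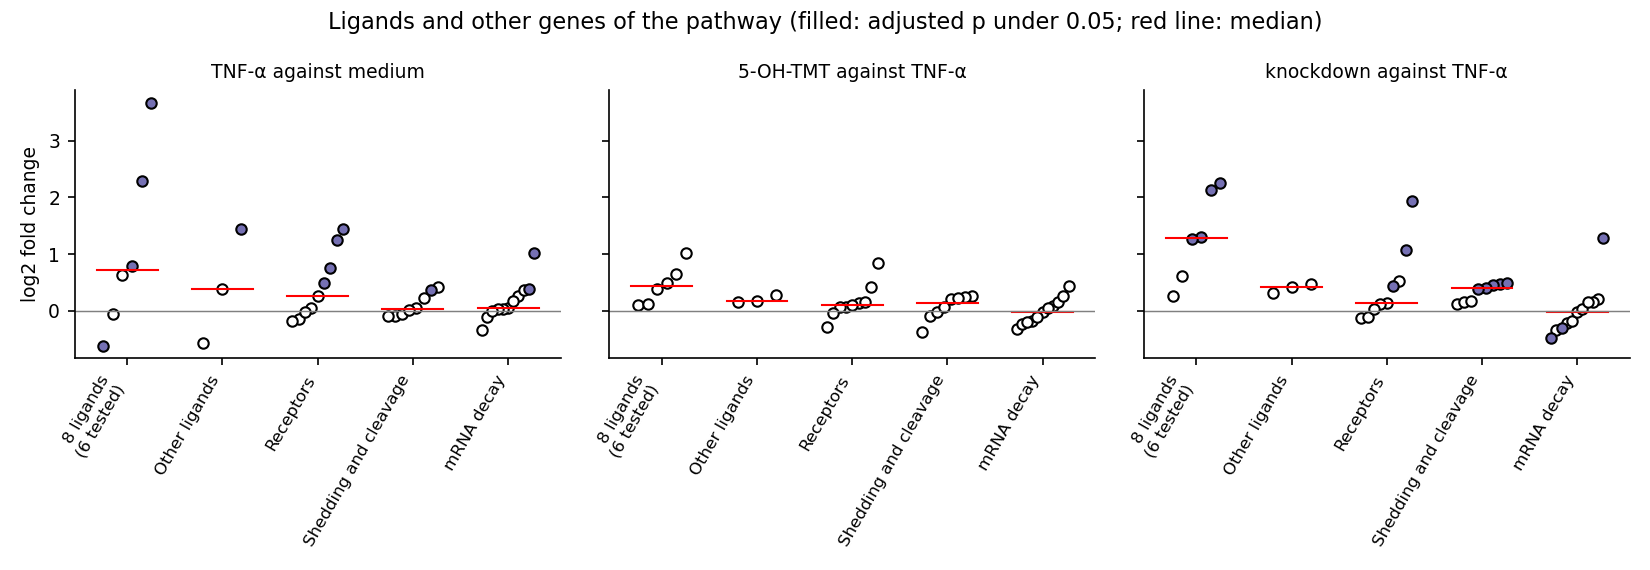
Log2 fold change (vertical axis) of the 6 tested ligands and of the tested genes of the 4 lists in TNF-α against medium, 5-OH-TMT against TNF-α and knockdown against TNF-α; each point is a gene, filled where its adjusted p is under 0.05, and the red line is the median. In the knockdown the ligand median is 1.29 and the medians of the lists lie between −0.02 and 0.43.

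Some ligand mRNAs of this family, such as that of TNF, are short-lived because AU-rich elements in the 3′ untranslated region recruit decay factors. The motif ATTTA and its longer form ATTTATTTA were therefore counted there in 1 GENCODE 29 transcript per gene. TNF held 9 ATTTA and 3 ATTTATTTA in 799 bases, LTA 3 and 1, TNFSF13B 12 and 0, and TNFSF15 15 and 0 in 5817 bases. TNFSF9 held 4 and TNFSF10 2 ATTTA, and LTB and TNFSF14 none in 154 and 371 bases. Over 12559 tested genes the median was 1 ATTTA, the median length was 972 bases, and 6.3% held ATTTATTTA. The densest 30 bases of TNF lie at chr6:31578003-31578032 (GRCh38, plus strand), with ATTTA in capitals:
TNF: tttattATTTATTTAttATTTATTTATTTA

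The genes that rose included TNF, rich in these motifs, and LTB, which has none in its short region. A part of the motifs in the rise was not tested. Of 11 genes for decay and translation of such mRNAs, ZC3H12A, the RNase Regnase-1, rose with TNF-α (log2 fold change 1.01, adjusted p = 6.08e-04) and again in the knockdown (1.28, adjusted p = 6.28e-05, from 18.9 ± 2.18 to 46.0 ± 4.97 FPKM; SD, n = 3). ZFP36L2, a decay factor, rose with TNF-α (0.39, adjusted p = 0.0328) and fell in the knockdown (−0.48, adjusted p = 0.00374), where HNRNPD, the AU-binding protein AUF1, fell too (−0.31, adjusted p = 0.0467). These were 2 calls higher and none lower with TNF-α, where 4.1% of all tested genes were called, and 1 higher and 2 lower in the knockdown, where 17.4% were. None was called with 5-OH-TMT, and the 3 of 11 at an unadjusted p under 0.05 were near the share of 20.1% over all tested genes. Against 5-OH-TMT, ZC3H12A was higher in the knockdown (0.85, adjusted p = 0.00163) and 3 genes were lower, led by KHSRP (−0.44, adjusted p = 0.0422) and MAPKAPK2 (−0.33, adjusted p = 0.0203). In that comparison 15.3% of all tested genes were called in either direction. The median log2 difference of these 11 genes lay between −0.03 and 0.05 in all 4 comparisons.

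For each tested ligand the genes with the most similar course over the 12 libraries were found among 11181 genes with a mean FPKM not below 1, as the smallest root-mean-square (RMS) difference of log2 profiles, each centred on its own mean. The closest to TNF were TNFAIP2 (RMS difference 0.37) and WNT4 (0.41), and TNF itself varied by an RMS of 1.71. TNFAIP2 was at 22.5, 132, 207 and 447 FPKM on average in the medium, TNF-α, 5-OH-TMT and knockdown groups, so it climbed in the same order as TNF at a level far above it. The closest to LTB were TNFAIP3 (0.31) and IL32 (0.33), beside an RMS of 1.92 for LTB. IL32 was at 0.0384, 1.28, 1.68 and 3.72 FPKM.

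TNFSF10, level in 3 groups and high in the knockdown, was matched most closely by IFI6 (0.26), an interferon-induced gene, and ABCA12 (0.31), beside an RMS of 0.91. IFI6 was at 35.6, 39.8, 43.6 and 152 FPKM. TNFSF15 was matched by PLPP3 (0.16) and RNF144B (0.18), beside 0.77, and TNFSF14 by ABTB2 (0.27) and APOBEC3G (0.27), beside 0.59. TNFSF9, whose RMS was only 0.25, was matched by LINC02506 (0.10) and LFNG (0.12). No gene was the closest or next closest to more than 1 of the 6 ligands.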

How the data were processed

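The study sequenced poly(A)-selected RNA of 12 NCM460 libraries. The authors deposited 1 FPKM value for every gene in every library, and the length of each gene. Their processing notes name CASAVA 1.8, HISAT2 2.0.4, HTSeq 0.9.1 and hg38, and the coordinates of nearly all genes were those of GENCODE 29. The strand setting and the scaling of the FPKM are not given in the sources used here. Multiplied by gene length and by 1 divisor per library, 100% of values came within 0.05 of a whole read. The divisor was 31173993 to 37288636 reads, and the sum over genes was 0.949 to 1.03 times it.

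With limma 3.58.1 in R 4.3.3, log2(FPKM + 0.1) was modelled by a mean for each group (eBayes with trend) for 18079 genes whose mean FPKM was 0.1 or more, and p-values, two-sided, were adjusted by Benjamini-Hochberg over all of them. The FPKM fold changes on this scale understate changes of low genes. LTA and TNFSF13B, below the filter, were read from the same model for all 31951 genes detected in any library. The threshold for a DEG follows the study's methods. Folds against libraries at 3 reads or fewer were computed against 3 reads a library. The ligands were each compared by an exact permutation test as well. Alternatives were pseudocounts of 1 and 0.01, no filter or a mean FPKM of 1, median-of-ratios and quantile scaling, a fit to the 2 groups compared, no trend, voom on recovered reads, the replicate number as a block, and each library left out. In 5 runs on simulated data the fit was tested with changed genes of known size and a preset spread between libraries. The changed genes were picked only among genes with many reads, so these runs do not cover ligands with few reads. No result given here rests on these runs. Replicate pairs within a group differed by a chi-squared of 7.35 to 45.4 per degree of freedom, so none was a repeat of another, and both extremes were pairs of knockdown libraries.

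The 8 ligands, the 4 lists and the markers were chosen with earlier results of these data known. Named were the 8 ligands, HTRA2, the 3 called genes of largest fold change per list and comparison, and the 2 nearest profiles per tested ligand; the marker genes and the uncalled list genes TNFRSF1A, EDA, TNFSF13 and CD40LG were named after their values were seen. Promoter sequences are from RefSeq (GRCh38.p14), transcripts from GENCODE 29.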

Additional observations from a re-analysis of the deposited data

How the results depend on the processing

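The fold changes of the ligands kept their direction and their side of the threshold in 559 of 600 refits, lost a call in 33, gained one in 1 and changed sign in 7, all of these among differences that were not called. With median-of-ratios or quantile scaling, the number of ligands called stayed at 4 for TNF-α against medium and for knockdown against TNF-α. With TNF-α against medium, 4 ligands were called, 2 with a pseudocount of 1 and 2 in a fit to only the groups compared, which called 392 genes rather than 742. For knockdown against 5-OH-TMT, 2 of 4 ligands kept the call with a pseudocount of 0.01, and 2 to 4 with a library left out. The genes called for 5-OH-TMT against TNF-α, 7 in the reported fit, were the least stable: 3 with a pseudocount of 1, 127 among genes whose mean FPKM was 1 or more, 4 after quantile normalization, 911 in a fit to only the groups compared, 1 without trend, 236 with voom on recovered reads, 1 with the replicate block, and 1 to 551 with a library left out (551 without knockdown library 2, 85 without medium library 2). No ligand was called there in any of these. With a library left out, 2015 to 3518 genes were called for knockdown against TNF-α (3152 reported; 2062 without TNF-α library 2, 2015 without knockdown library 1) and 1314 to 3213 for knockdown against 5-OH-TMT (2762 reported; 1416 and 1314 without 5-OH-TMT library 1 or 2, 1757 and 1770 without knockdown library 1 or 2). The log2 fold change of TNFSF10 ranged from −0.167 to 0.0522 for TNF-α against medium and from −0.00374 to 0.215 for 5-OH-TMT against TNF-α, that of TNFSF15 from −0.0499 to 0.295 for the latter, and that of TNFSF14 from −0.267 to 0.197 for knockdown against 5-OH-TMT. Libraries of the same number in different groups deviated together no more than others (correlations −0.366 to 0.151, median 0.016, against −0.210 to 0.347), so the numbers were not taken as pairs. With the replicate block 600, 1, 2660 and 2062 genes were called in the 4 comparisons, and among the ligands it ended the call of TNFSF15 for TNF-α against medium. The cause of each change was not tested. Depth limits LTA and TNFSF13B, at 3 reads or fewer in most libraries.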
